A study of Homo sapiens with 6 samples.

Results

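The 10 genes examined here serve mitochondrial protein folding and quality control: the chaperonin genes HSPD1 and HSPE1, the mitochondrial HSP70 gene HSPA9 with its nucleotide exchange factors GRPEL1 and GRPEL2, the HSP90 relative TRAP1, the protease genes LONP1, CLPP and CLPX, and the disaggregase gene CLPB. They were chosen by name as the main folding and protein-breakdown machines of mitochondria, with earlier results of these data known. All 10 were found among the 19475 gene symbols of the deposited table. RNA sequencing had been done on MH7A cells, an established synovial fibroblast line from a patient with rheumatoid arthritis that carries a viral large T antigen. In the TNF group (replicates 2, 8 and 14) the cells had received TNFα, an inflammatory cytokine of the arthritic joint, at 10 ng/ml. In the TNF plus LED group (replicates 4, 6 and 10, also called light-exposed below) they had received the same dose of TNFα and red light of 630 nm from a light-emitting diode, for 15 min, 3 times. All 6 libraries thus came from 1 cell line under TNFα, and cells without TNFα, with light alone or with a sham exposure were not analysed here. Values per library are given below in this order of replicates. The comparison of these groups asks how the transcripts differed with light in TNFα-treated cells.

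Most mitochondrial proteins are made in the cytosol and enter the organelle unfolded. Mitochondrial HSP70, encoded by HSPA9, pulls the incoming chain into the matrix, and GrpE-like factors reset its nucleotide cycle. The HSPD1 protein forms the HSP60 folding chamber and the HSPE1 protein, HSP10, is its lid, so that both are needed for folding. Proteins that cannot be folded are unwound by CLPX and cut by CLPP, or are broken down by LONP1, while CLPB dissolves aggregates in the intermembrane space. Transcripts of these genes are commonly followed as a readout of protein-folding stress in mitochondria.

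Deposited totals ran from 86000253 to 108074289 estimated counts per library. A sequenced fragment appeared to be worth about 4 of these units, so the deposited counts are more precise on paper than the sequencing behind them. The fibroblast markers COL1A1, FN1 and VIM were among the most abundant transcripts (a mean of 13123, 11009 and 7745 CPM in TNF, where CPM is the count scaled to a library of 1000000), while PRG4, a marker of the synovial lining, was at 0 to 8 counts in all libraries. The 12 markers of leukocytes, endothelium and epithelium summed to 2.17 to 2.56 CPM in TNF and to 3.68 to 4.07 CPM in TNF plus LED, and CD3E, CDH5 and KRT5 were among those at 0 throughout; their part in the results below was not tested. A lower level in such bulk RNA does not tell fewer expressing cells from less RNA per cell. TNF replicate 8 and TNF plus LED replicate 6 stood apart over expressed genes. The chi-square per degree of freedom between 2 libraries was 503 and 375 for TNF replicate 8 against replicates 2 and 14. It was 104 between replicates 2 and 14. For TNF plus LED replicate 6 it was 282 and 420 against replicates 4 and 10, and 103 between replicates 4 and 10. Among the 10 genes, TNF replicate 8 was at 1 end of its group for each, highest for 6 and lowest for 4. TNF plus LED replicate 6 was highest in its group for 7 and at an end for 9, but replicate 10 was at an end for 8.

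The chaperonin pair rose with light, and none of the other 8 genes passed the test. HSPD1 rose 6.22-fold and HSPE1 rose 3.77-fold, the HSP70 gene HSPA9 was 1.76-fold higher, and the fitted changes of the exchange factor, TRAP1, protease and disaggregase genes lay between -0.26 and 0.33 on the log2 scale. Of the 10 genes, all of which were abundant enough to be tested, 2 rose, 0 fell and 8 did not pass at an adjusted p below 0.05 in edgeR's quasi-likelihood test over 13794 genes. In the same fit 2.44% of all tested genes rose and 2.73% fell. At an unadjusted p below 0.05, 3 of the 10 were higher and 0 lower, beside 10.9% and 11.8% of all genes. DESeq2 called 3 higher and 0 lower, beside 6.34% and 6.38% of all genes, and limma-voom 2 and 0, beside 2.33% and 2.45%. The median log2 fold change of the 10 was 0.17, beside 0.01 for all tested genes, and 7 of the 10 were above 0, as were 50.8% of all genes. All light-exposed libraries were above all TNF libraries for HSPD1, HSPE1 and HSPA9 and below them for TRAP1. Such full separation of the groups, seen here in 4 of 10 genes, occurred in 32.4% of all tested genes, 16.2% higher and 16.2% lower.

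**Figure D1:**
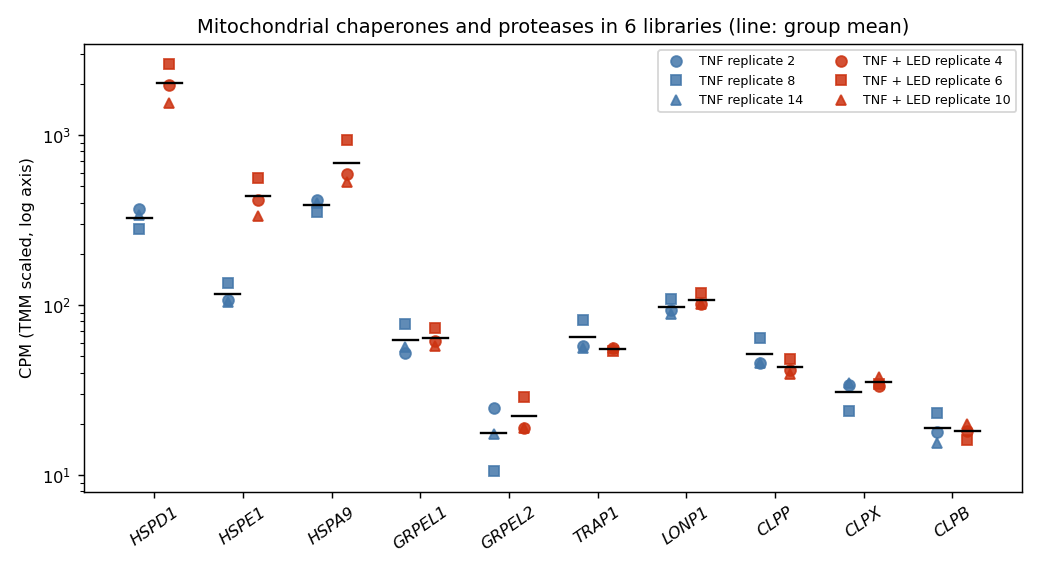
Level of each of the 10 genes in each library, in CPM on a log axis; blue symbols are TNF, red symbols TNF plus LED, and black lines are group means (n = 3 each). HSPD1 and HSPE1 in the light-exposed libraries lay well above every TNF library, HSPA9 did so by less, and the remaining genes stayed within or near the TNF range.

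HSPD1 encodes the subunit of the HSP60 chamber. It had 365, 279 and 336 CPM in TNF and 1955, 2600 and 1541 CPM in TNF plus LED. The lowest light-exposed library was thus more than 4 times the highest TNF library. The log2 fold change was 2.64 ± 0.24 (SE, n = 3 each, adjusted p = 0.00159, edgeR), with a 95% interval of 2.10 to 3.17. The call held in each of 17 alternative fits, with log2 fold changes from 2.32 to 2.80, and its adjusted p stayed at or below 0.0142 when any single library was left out.

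HSPE1 encodes the HSP10 lid of the same chamber. Its levels were 107, 134 and 105 CPM in TNF and 415, 557 and 333 CPM in TNF plus LED, with no overlap. The log2 fold change was 1.92 ± 0.23 (SE, n = 3 each, adjusted p = 0.00461, edgeR), with a 95% interval of 1.41 to 2.42. This call too held in all 17 alternatives, between 1.70 and 2.08. The deposited table also lists HSPE1-MOB4, a readthrough gene that shares HSPE1's exons and continues into the neighbouring MOB4, so reads can be divided between the 2 entries. HSPE1-MOB4 rose from 13.3 ± 6.99 to 93.9 ± 47.3 CPM (SD, n = 3 each, log2 fold change 2.82 ± 0.44, adjusted p = 0.0137, edgeR), and MOB4 had 50.6 ± 14.1 and 83.3 ± 19.9 CPM (adjusted p = 0.135, edgeR). The call of HSPE1-MOB4 was lost without TNF replicate 8 (adjusted p = 0.0503, edgeR) and without TNF plus LED replicate 6 (adjusted p = 0.0703, edgeR). With both libraries left out it was lost as well (log2 fold change 2.24, adjusted p = 0.161, edgeR). HSPE1-MOB4 held 6.45% to 16.7% of the combined counts of both entries in TNF and 13.4% to 21.0% in TNF plus LED. With its counts added to those of HSPE1, the log2 fold change of HSPE1 was 2.04 ± 0.24 (adjusted p = 0.00448, edgeR). GENCODE release 29 annotates 17 processed or other pseudogenes of HSPD1 and 26 of HSPE1 (and 1 of HSPA9 and 3 of GRPEL2), none of which is in the table, and the HSPD1 and HSPE1 gene models overlap on opposite strands. The sources used here do not say how reads from such copies and overlaps were assigned, so the exact levels of both genes carry that uncertainty.

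HSPD1 and HSPE1 lie head to head on chromosome 2, and their start regions were searched for heat shock elements, the inverted GAA repeats that heat shock factors bind. Windows from 250 bases before to 50 bases after each start were taken from RefSeq (GRCh38.p14) for 8 of the 10 genes; GRPEL1 and CLPP had no entry. The motifs GAANNTTC and TTCNNGAA (2 units), and a 3-unit motif made of GAANNTTC followed by NN and another GAA, were searched on both strands, and a 3-unit match contains both 2-unit ones. The window of 1 of the HSPD1 starts held an unbroken run of 18 bases in which these motifs overlap, at -245 to -228 from that start, and this was the only window of the 8 genes with the 3-unit motif, which 0.49% of all 35116 windows hold. The window of HSPE1, the gene with the next largest change, held no match. HSPA9, the third by size of change, had a single TTCNNGAA across its start from -4 to 4. Among all windows 7.74% hold TTCNNGAA and 6.77% hold GAANNTTC. The 2 stretches are shown with HSPA8, the constitutive cytosolic HSP70, whose window held the 3-unit motif at 2 places; capitals mark the motif run, and each stretch reads 5′ to 3′ on the gene's strand.
HSPD1, chr2:197500061-197500090, minus strand: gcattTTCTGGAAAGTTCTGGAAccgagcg
HSPA9, chr5:138575387-138575416, minus strand: tggttggaggtTTCCAGAAgcgctgccgcc
HSPA8 (far from the start), chr11:123062345-123062374, minus strand: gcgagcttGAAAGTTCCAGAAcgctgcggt
HSPA8 (near the start), chr11:123062170-123062199, minus strand: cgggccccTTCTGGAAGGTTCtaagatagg

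RefSeq gives 2 HSPD1 starts. The run lies 228 bases upstream of the start farther from HSPE1, whose window held it, and 189 bases downstream of the start nearer to HSPE1, whose window held no match. It is 294 bases from the HSPE1 start and 44 bases outside the HSPE1 window. HSPE1, GRPEL2, TRAP1, LONP1, CLPX and CLPB had no match to any of the 3 heat shock motifs in these windows. HSPA8, shown above, had a log2 fold change of 0.72 ± 0.25 (adjusted p = 0.13, edgeR), and HSP90AA1 and HSP90AB1, whose windows also held the 3-unit motif, rose by 2.05 ± 0.22 and 1.58 ± 0.29. HSPA1A and DNAJB1, which rose by 5.79 and 3.86, had 2-unit matches only, and HSPA5, which rose by 1.70, had none. TCP1, which rose by 1.41, also had a 2-unit match only, as did CCT2 (0.61) and SIL1 (-0.10), neither of which passed. HSP90B1 (0.90), which did not pass, had no match. The CHOP-type motif TGCAAT, present in 8.21% of windows, occurred once in the same HSPD1 window, 122 bases before the start, and TGATGNAA, an ATF4-type motif present in 3.62% of windows, occurred in none of the 8 genes' windows. A match of letters is a description of the window and not evidence of binding.

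HSPA9 encodes mitochondrial HSP70, also called mortalin, the motor of import and the first chaperone that an incoming chain meets. It had 417, 351 and 398 CPM in TNF and 590, 935 and 532 CPM in TNF plus LED. All light-exposed libraries were above all TNF libraries, and replicate 6 was far above the other two. The log2 fold change of 0.82 ± 0.23 (SE, n = 3 each) did not pass over all genes (adjusted p = 0.0753, edgeR), although its unadjusted 95% interval, 0.30 to 1.34, lay above 0. DESeq2 called HSPA9 higher (adjusted p = 0.00992). Without TNF plus LED replicate 6 the log2 fold change was 0.53 (adjusted p = 0.16, edgeR). Without that library and TNF replicate 8 it was 0.46 and passed (adjusted p = 0.031, edgeR). Those 2 libraries were the ones that stood apart in these data. Without them 763 genes were called higher and 906 lower, beside 336 and 377 with all libraries. The pass is thus no separate support for a rise of HSPA9. HSPA5, the HSP70 of the endoplasmic reticulum, was likewise highest in replicate 6, with 7472 CPM beside 3267 and 2806 CPM in replicates 4 and 10; its part in the HSPA9 value was not tested.

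**Figure D2:**
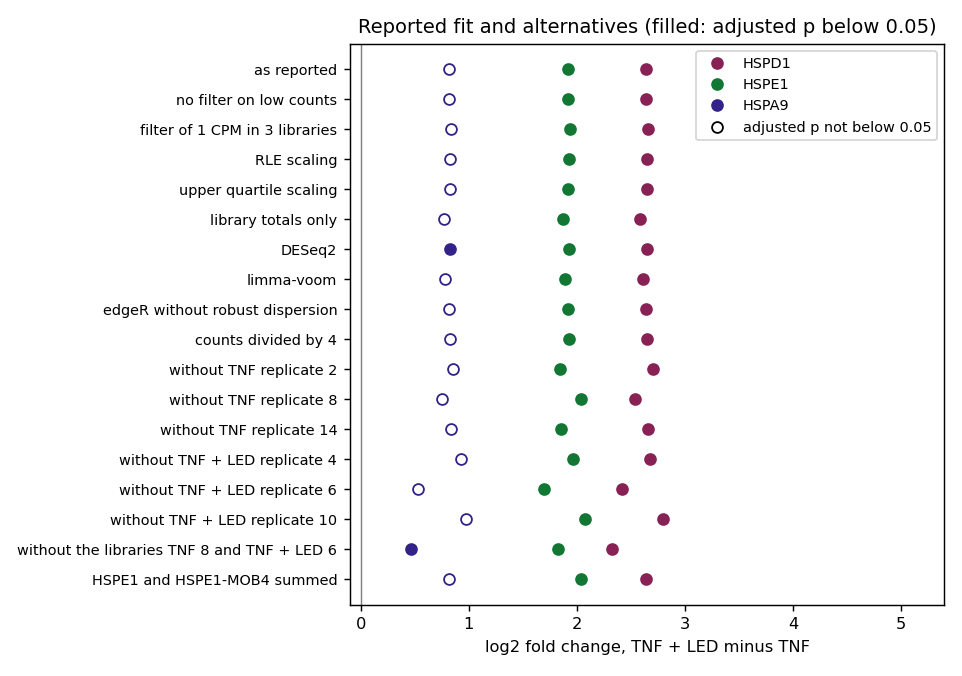
Log2 fold change of HSPD1, HSPE1 and HSPA9 (TNF plus LED minus TNF) in the reported fit and in 17 alternative fits, 1 per row; filled circles passed an adjusted p of 0.05 and open circles did not. HSPD1 stayed between 2.32 and 2.80 and HSPE1 between 1.70 and 2.08, filled in every row, whereas HSPA9 ranged from 0.46 to 0.97 and was filled in the DESeq2 row and in the row without TNF 8 and TNF plus LED 6.

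The exchange factors that release ADP from mitochondrial HSP70 did not pass. GRPEL1 had 52.3, 77.3 and 56.6 CPM in TNF and 61.3, 72.9 and 57.4 CPM in TNF plus LED, so the light-exposed range lay inside the TNF range. Its log2 fold change was 0.04 ± 0.20 (adjusted p = 0.929, edgeR), and the 95% interval of -0.41 to 0.49 excludes the fitted change of either chaperonin gene. GRPEL2, a paralog of GRPEL1 with a similar role, had 24.7, 10.5 and 17.5 CPM in TNF and 18.9, 28.6 and 18.9 CPM in TNF plus LED. Its groups overlapped, and the log2 fold change of 0.33 ± 0.31 (adjusted p = 0.569, edgeR) had the widest interval of the 10, -0.36 to 1.03. TNF replicate 8 held both the highest GRPEL1 and the lowest GRPEL2 level of the 6 libraries.

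TRAP1, an HSP90-type ATPase of the matrix, had 57.4, 81.7 and 56.2 CPM in TNF and 56.1, 53.7 and 56.0 CPM in TNF plus LED. The groups did not overlap, but TNF replicate 14 and TNF plus LED replicate 4 were almost level, and the log2 fold change was -0.24 ± 0.19 (adjusted p = 0.512, edgeR). Without TNF replicate 8 it was -0.04. Cytosolic HSP90AA1, by comparison, went from 1346 ± 291 to 5567 ± 810 CPM (SD, n = 3 each), and HSP90B1, the HSP90 of the endoplasmic reticulum, had 1284 ± 467 and 2400 ± 484 CPM (log2 fold change 0.90 ± 0.29, adjusted p = 0.108, edgeR). The 95% interval for TRAP1, -0.67 to 0.19, does not overlap that for HSP90AA1, 1.55 to 2.54.

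None of the protease genes passed. LONP1, the main soluble protease of the matrix, had 93.2, 109 and 88.7 CPM in TNF and 101, 117 and 102 CPM in TNF plus LED (log2 fold change 0.14 ± 0.17, adjusted p = 0.678, edgeR). The TNF library with the highest level exceeded both of the lower light-exposed ones. CLPP, the proteolytic barrel, had 45.8, 63.7 and 45.6 CPM in TNF and 41.6, 48.1 and 39.5 CPM in TNF plus LED (-0.26 ± 0.19, adjusted p = 0.462). CLPX, the ring that feeds it, had 33.9, 23.8 and 34.6 CPM in TNF and 33.5, 34.3 and 37.8 CPM in TNF plus LED (0.20 ± 0.19, adjusted p = 0.592). For both, the libraries of the groups overlapped, and TNF replicate 8 was the outermost library, high for CLPP and low for CLPX. Without it the log2 fold changes were -0.086 for CLPP and 0.041 for CLPX. The 95% intervals reached at most 0.62 on the log2 scale in the higher direction, for CLPX, and -0.70 in the lower, for CLPP. LONP1 overlaps the ribosomal protein gene RPL36, and TRAP1 overlaps DNASE1, on the opposite strand, so a part of their counts is uncertain where strand was not used.

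CLPB, the disaggregase of the intermembrane space, was among the 3 least abundant of the 10 in CPM. It had 17.98, 23.2 and 15.4 CPM in TNF and 18.1, 16.1 and 20.01 CPM in TNF plus LED. The light-exposed libraries all lay within the TNF range. Its log2 fold change was -0.06 ± 0.20 (adjusted p = 0.885, edgeR), with a 95% interval of -0.52 to 0.39.

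**Figure D3:**
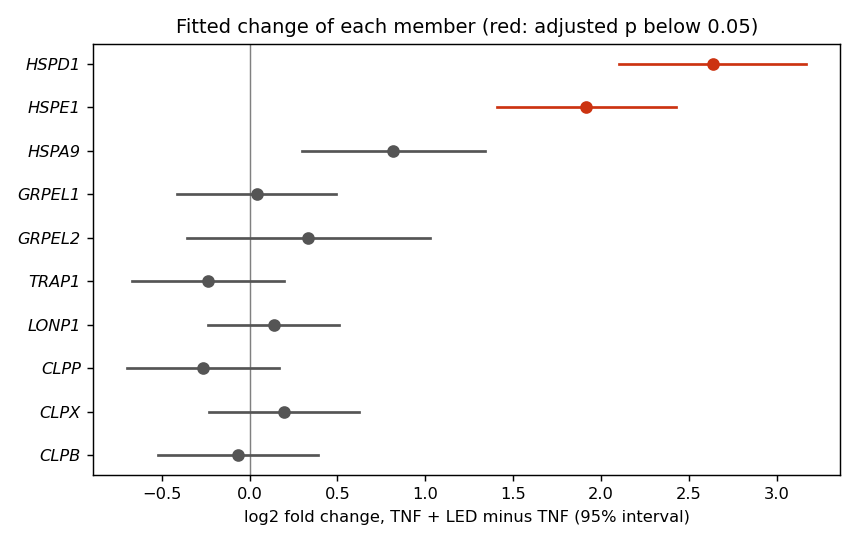
Fitted log2 fold change of each of the 10 genes (TNF plus LED minus TNF) with its unadjusted 95% interval; red marks an adjusted p below 0.05. HSPD1 (2.64) and HSPE1 (1.92) stand apart, HSPA9 is at 0.82, and the intervals of the other 7 genes all include 0.

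Because scale factors cancel within a library, ratios between partners show whether they moved to the same extent. The log2 ratio of HSPD1 to HSPA9 was -0.19, -0.33 and -0.25 in TNF and 1.73, 1.48 and 1.54 in TNF plus LED. Counts of HSPD1 were thus slightly below those of HSPA9 in TNF, and the ratio was on average 3.57-fold larger in TNF plus LED. The log2 shift was between 1.76 and 1.89 with any single library left out. The starting side of such a count ratio depends on transcript length. Divided by that length, HSPD1 was already above HSPA9 in TNF (133 and 82.2 CPM per kb). Within the chaperonin pair, the log2 ratio of HSPD1 to HSPE1 was 1.77, 1.06 and 1.68 in TNF and 2.24, 2.22 and 2.21 in TNF plus LED, a mean shift of 0.72, and of 0.50 without TNF replicate 8 and TNF plus LED replicate 6. With the readthrough counts added to HSPE1 the shift was 0.61, and the groups still did not overlap (0.94 to 1.67 against 1.88 to 2.03). The ratio of HSPA9 to GRPEL1 shifted by 0.72, from 2.99, 2.18 and 2.81 in TNF to 3.27, 3.68 and 3.21 in TNF plus LED. That shift was 0.48 without TNF replicate 8 and 0.34 without both libraries that stood apart.

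These 3 ratios separated the groups completely. Each had an exact two-sided permutation p of 0.1, the smallest that 3 against 3 libraries can give (adjusted over 5 ratios, 0.167). How often the ratios of other gene pairs separate was not computed, and 32.4% of all tested single genes did so. The same counts underlie the single-gene changes given above, so these shifts are not separate results. The ratios of GRPEL1 to GRPEL2 and of CLPX to CLPP overlapped between the groups (exact p = 0.7 and 0.3, adjusted 0.7 and 0.375). The GRPEL1 to GRPEL2 ratio shifted by -0.34 with all libraries and by 0.16 without TNF replicate 8, so its direction rested on that library. The CLPX to CLPP ratio shifted by 0.46, and by 0.13 without the same library.

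**Figure D4:**
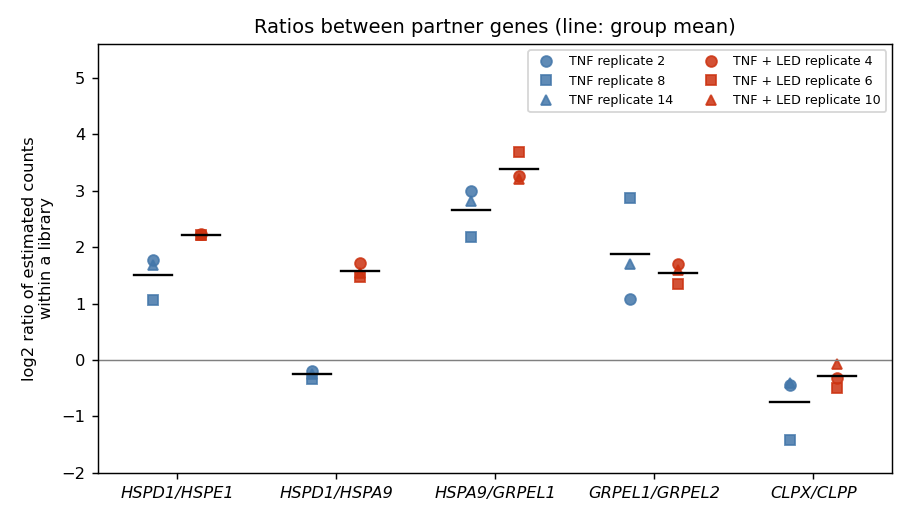
Log2 ratio of the estimated counts of partner genes within each library; blue symbols are TNF, red symbols TNF plus LED, and black lines are group means (n = 3 each). The groups are apart for HSPD1/HSPE1, HSPD1/HSPA9 and HSPA9/GRPEL1 and overlap for the other pairs, and TNF replicate 8 is the lowest or the highest TNF library in every pair.

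Summed, the 10 genes took 0.115% to 0.121% of scaled counts under TNF alone, against 0.329%, 0.446% and 0.274% in the light-exposed libraries. HSPD1 alone made up 24.2% to 30.05% of the sum in TNF and 56.3% to 59.4% in TNF plus LED. Without HSPD1, HSPE1 and HSPA9 the summed level of the other 7 genes was 315 to 389 CPM in TNF and 331 to 371 CPM in TNF plus LED, so the light-exposed range lay inside the TNF range. To compare levels between genes, CPM was divided by the length of the longest principal transcript in GENCODE release 29. On this per-kilobase scale, HSPD1 and HSPE1 were the most abundant in TNF (133 ± 17.7 and 121 ± 17.3 CPM per kb, SD, n = 3) and overlapped each other. HSPA9 followed at 82.2 ± 7.13, then CLPP at 44.7 ± 8.99, and LONP1, TRAP1 and GRPEL1 at 29.97 ± 3.30, 28.3 ± 6.29 and 22.4 ± 4.81, neighbours whose libraries overlapped. CLPX (6.55 ± 1.28), GRPEL2 (4.29 ± 1.74) and CLPB (1.85 ± 0.39) were the lowest. The transcript lengths used for CLPB and GRPEL2 were 10.17 and 4.09 kb, while their mean levels in TNF were 18.9 and 17.6 CPM. The last place of CLPB in TNF thus depends on the annotated length. The order of the 10 was the same in TNF plus LED, where HSPD1 reached 828 ± 218 CPM per kb and no longer overlapped HSPE1 at 458 ± 120.

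The wider import and quality-control machinery was examined through lists of related genes. Over all tested genes, 2.44% rose and 2.73% fell in edgeR, 6.34% and 6.38% in DESeq2 and 2.33% and 2.45% in limma-voom. At an unadjusted p below 0.05 in edgeR, 10.9% were higher and 11.8% lower. In mitochondrial lists this short, here and below, counts of 0 or 1 in edgeR cannot be told from those shares. The same holds for counts of up to 3 at an unadjusted p below 0.05. Of 12 genes of the inner membrane import motor, the presequence translocase and the partners of mitochondrial HSP70, 0 rose and 0 fell in edgeR, at an unadjusted p below 0.05, with DESeq2 or with limma-voom, and the median log2 fold change was 0.01. TIMM17A, a channel subunit, and DNAJA3, the matrix J-domain partner of HSP70, had the lowest p, with log2 fold changes of 0.32 ± 0.19 and 0.18 ± 0.16. Of 10 outer membrane import genes 0 rose and 0 fell in edgeR or limma-voom (median 0.02), while 1 was higher at an unadjusted p below 0.05 and with DESeq2. This was the receptor TOMM70, which recognises precursors handed over by cytosolic chaperones. It had 107, 96.8 and 104 CPM in TNF and 142, 132 and 151 CPM in TNF plus LED (log2 fold change 0.46 ± 0.16, adjusted p = 0.117 in edgeR and 0.0424 in DESeq2). TOMM20, the receptor for presequences, was at 0.37 ± 0.17 (adjusted p = 0.244, edgeR).

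Among 15 further mitochondrial proteases and processing peptidases 1 rose, 0 fell and 14 did not pass (median -0.15, and at an unadjusted p below 0.05, 1 higher and 2 lower; 1 and 0 with DESeq2 and with limma-voom). The 1 that rose was XPNPEP3, an aminopeptidase that trims imported proteins after presequence removal. It had 14.0, 11.6 and 11.2 CPM in TNF and 25.7, 24.6 and 24.2 CPM in TNF plus LED, a log2 fold change of 1.01 ± 0.17 (adjusted p = 0.0172, edgeR). The libraries within each group were close, but the call was lost without TNF replicate 14 or without any 1 of the light-exposed libraries (adjusted p up to 0.0861), with log2 fold changes of 0.95 to 1.10 throughout. Of 10 genes of the prohibitin scaffold and of inner membrane assembly, 0 rose and 0 fell in edgeR, at an unadjusted p below 0.05, with DESeq2 or with limma-voom (median -0.04). Their lowest p belonged to the ATP synthase assembly factors ATPAF1 and ATPAF2, at -0.29 ± 0.17 and -0.25 ± 0.20.

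Of 10 genes tied to mitochondrial or heat stress, 8 of them transcription factors beside the deacetylase SIRT3 and the DNA-binding protein SSBP1, 0 rose and 0 fell in edgeR, DESeq2 or limma-voom, and at an unadjusted p below 0.05, 1 was higher and 1 lower (median 0.02). HSF1, the main heat shock factor, had a log2 fold change of -0.05 ± 0.20, and ATF4, which drives the integrated stress response, 0.02 ± 0.28. These are transcript levels, and the activity of the factors was not measured. Without TNF replicate 8 and TNF plus LED replicate 6, ATF4 was called lower (-0.45, adjusted p = 0.034, edgeR). As for HSPA9, this call rests on leaving out the 2 libraries that stood apart. ATF5, a factor of the mitochondrial unfolded protein response, had 93.9 ± 16.4 CPM in TNF and 66.1 ± 10.2 in TNF plus LED (SD, n = 3 each, log2 fold change -0.51 ± 0.20, adjusted p = 0.166, edgeR), and -0.23 without those 2 libraries. DDIT3, which encodes CHOP, had 25.9, 11.4 and 13.9 CPM in TNF and 35.8, 113 and 23.4 CPM in TNF plus LED. Its groups overlapped, and its level in TNF plus LED replicate 6 was over 3 times that of any other library (log2 fold change 1.75 ± 0.55, adjusted p = 0.0998, edgeR). Without TNF replicate 8 and TNF plus LED replicate 6 its log2 fold change was 0.57.

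Among 18 genes of mitochondrial mass and biogenesis 0 rose and 0 fell in edgeR (median 0.01). At an unadjusted p below 0.05, 3 were higher and 2 lower, beside 10.9% and 11.8% of all tested genes. The enzyme CS, citrate synthase, and the pore VDAC1, which are used as measures of mitochondrial content, had log2 fold changes of 0.11 ± 0.16 and -0.06 ± 0.16, and VDAC1 was at 0.054 without TNF replicate 8. GABPA, an ETS factor that drives nuclear genes of mitochondrial proteins, had 43.1, 22.0 and 39.5 CPM in TNF and 68.1, 71.1 and 65.2 CPM in TNF plus LED (0.97 ± 0.25, adjusted p = 0.0548, edgeR). TFB2M, a transcription factor of the mitochondrial genome, was at 0.95 ± 0.25 (adjusted p = 0.0619, edgeR), and at 0.56 without TNF replicate 8 and TNF plus LED replicate 6. DESeq2 called 3 genes of this list higher (GABPA, TFB2M and PPARGC1B) and 1 lower (TFB1M), beside 6.34% and 6.38% of all genes. With limma-voom 1 (GABPA) was higher and 0 lower, beside 2.33% and 2.45%. PPARGC1B and TFB1M are named after their values were seen. Of 10 chaperones of the cytosol and endoplasmic reticulum, 6 rose, 0 fell and 4 did not pass (median 1.495). Over all tested genes 2.44% rose and 2.73% fell. DESeq2 called 9 of the 10 chaperones higher, beside 6.34% of all genes, and limma-voom 6, beside 2.33%. These chaperones were set beside the lists for comparison and chosen with earlier results of these data known, so the counts are a description. Of the 6 omissions of a single library, HSPA5 kept its call in 2, HSP90AB1 in 3 and TCP1 in 5, and HSPA1A, DNAJB1 and HSP90AA1 in all 6. HSPA5 lost it without TNF replicate 8 or 14 or TNF plus LED replicate 4 or 6 (adjusted p up to 0.0883, edgeR), HSP90AB1 without TNF replicate 8 or 14 or TNF plus LED replicate 4 (up to 0.0828), and TCP1 without TNF replicate 14 (0.0642). With both TNF replicate 8 and TNF plus LED replicate 6 left out, DNAJB1 missed the threshold (log2 fold change 3.51, adjusted p = 0.0521, edgeR). The 6 included TCP1 of the cytosolic chaperonin, which rose by 1.41 ± 0.23, while its partner subunit CCT2 was at 0.61 ± 0.20 (adjusted p = 0.105, edgeR).

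**Figure D5:**
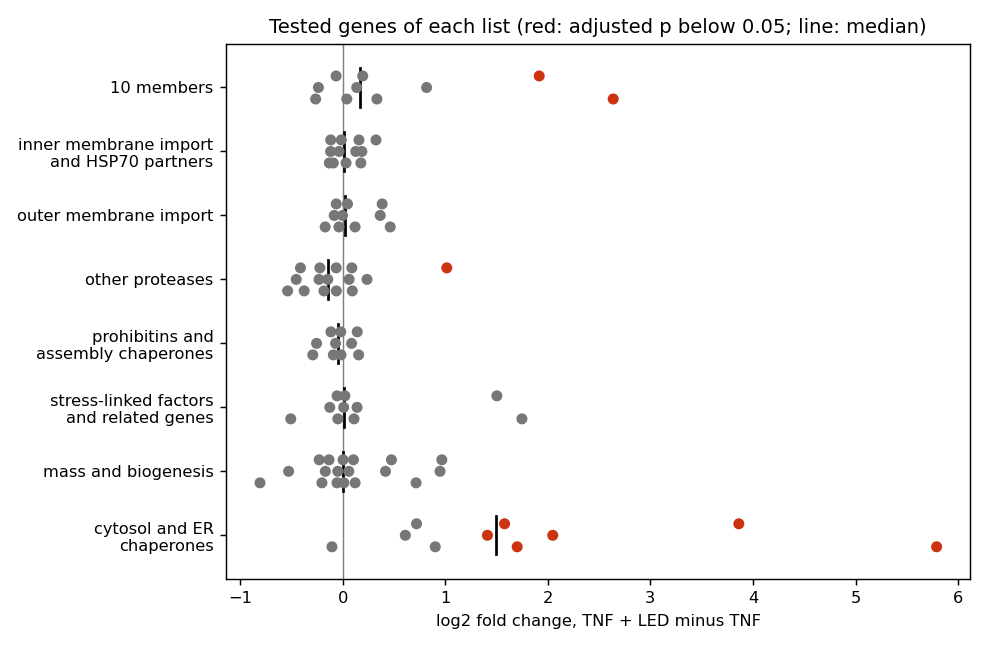
Log2 fold change (TNF plus LED minus TNF) of every tested gene in 8 lists, with the median of each list as a black line; red marks an adjusted p below 0.05. The lists of mitochondrial and stress-linked genes other than the 10 described above centre between -0.15 and 0.02 with 1 called gene, XPNPEP3. Of the 10 cytosolic and endoplasmic reticulum chaperones, chosen with earlier results of these data known, 6 are called, up to 5.79 for HSPA1A. Over all tested genes 2.44% rose and 2.73% fell.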

How the data were processed

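RNA sequencing of 6 libraries of 1 human cell line was deposited by the authors as a single table of estimated counts per gene symbol, written as whole numbers; they entered the tests as deposited. Per the labels' protocols, total RNA was freed of ribosomal RNA with probes, fragmented and primed at random. Tools listed without roles in the submitters' processing notes are HISAT2, StringTie, limma, DESeq2 and bcl2fastq 2.0, with a mouse build, mm10, although the samples are human; the human build and the use of strand are not given in the sources used here. Of deposited values from 1 to 7, 41.8% equalled 4, hence the 4 units per fragment.

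Groups came from the labels. The table was fitted with edgeR 4.0.16 (R 4.3.3): filterByExpr, TMM scaling, robust quasi-likelihood test, two-sided, Benjamini-Hochberg adjustment over 13794 genes, threshold 0.05. A standard error is the log2 fold change divided by the square root of F, and 95% intervals use the fit's t quantiles. DESeq2 1.42.0, limma-voom 3.58.1, other filters and scalings, counts divided by 4 and omitted libraries were alternatives; summing HSPE1 with HSPE1-MOB4 was added after the data were seen. The procedure was tested on simulated data. Libraries differed far beyond sampling noise, so none was a copy. No label states that the samples were separate cultures; p-values then reflect only the spread among these 6, possibly a technical one. The 10 genes and all lists were chosen with earlier results of these data known. All 10 were described, and from each mitochondrial list up to 4 called genes with the lowest p, or the 2 lowest where none was called; HSF1, ATF4, ATF5, DDIT3 and the comparison chaperones were always eligible. CS, VDAC1, HSPE1-MOB4, MOB4, SPG7, PPARGC1B, TFB1M and CEBPB, and the fibroblast and other markers, were named outside this rule.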

Additional observations from a re-analysis of the deposited data

How the results depend on the processing

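HSPD1 and HSPE1 kept their calls in all 17 alternatives, and 2 of the 10 genes were called in each, except 3 with DESeq2 and 3 without TNF 8 and TNF plus LED 6 (the 4-library fit), where HSPA9 joined. Over all genes, DESeq2 called 874 higher and 879 lower, the 4-library fit 763 and 906, and single-library omissions 59 to 314 higher and 21 to 423 lower, beside 336 and 377. The 2 libraries that the 4-library fit left out were those that stood apart in these data, so its calls are no separate support. In the other lists, DESeq2 gave 1 outer membrane import gene higher (TOMM70), and 3 biogenesis genes higher and 1 lower. The 4-library fit gave 1 outer membrane gene (TOMM70) and 1 biogenesis gene (GABPA) higher, and 1 protease (SPG7), 1 gene of the stress list (ATF4) and 1 biogenesis gene (TFB1M) lower. With no filter, upper quartile scaling, limma-voom or counts divided by 4, 1 biogenesis gene (GABPA) was higher, and single omissions gave 0 to 1 there and 0 to 1 for the other proteases. Among the 45 genes refitted under the alternatives, signs changed for 7, none called with all libraries, and for 1 of 5 ratios. In single omissions GRPEL1 ran from -0.084 to 0.23, CLPB from -0.19 to 0.11, SIL1 from -0.21 to 0.018, VDAC1 from -0.12 to 0.054, HSF1 from -0.21 to 0.12, ATF4 from -0.42 to 0.23 and the GRPEL1/GRPEL2 ratio from -0.74 to 0.16. In the 4-library fit GRPEL2 was -0.16, CLPB 0.19, HSF1 0.047, VDAC1 0.050, ATF4 -0.45 and that ratio 0.26, and ATF4 was -0.037 with library totals and -0.065 with limma-voom. The cause was not tested. No paired analysis was possible because the groups share no replicate number.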

Other observations

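The 5 tested genes whose log2 CPM followed the mean of HSPD1 and HSPE1 most closely over the 6 libraries, among 8984 genes with a mean of at least 10 CPM, were RGS4 (r = 0.997), ZNF35 (0.996), BAG3 (0.996), PRAG1 (0.996) and FOXF2 (0.995). RGS4, a regulator of G protein signalling, went from 5.80 ± 0.84 to 66.6 ± 30.01 CPM, and BAG3, a co-chaperone of cytosolic HSP70, from 121 ± 12.8 to 1281 ± 314 CPM (SD, n = 3 each). Neither is a mitochondrial protein gene of the lists above. ZNF35 had 10.3 ± 0.19 and 14.3 ± 0.78 CPM, so a close match in pattern did not mean a like size. PRAG1 and FOXF2 rose by 1.21 and 0.85 on the log2 scale (adjusted p = 0.0117 and 0.0264, edgeR). The 6 points are the 2 groups of 3 libraries that differ in HSPD1 and HSPE1, so the coefficients are a description and carry no p. Without TNF replicate 14 or TNF plus LED replicate 6 the call of PRAG1 was lost (adjusted p up to 0.0608, edgeR), and that of FOXF2 was lost without TNF replicate 14 or any 1 of the light-exposed libraries (up to 0.107). On the same measure the other 8 mitochondrial genes were at 0.913 (HSPA9), 0.605 (LONP1), 0.501 (GRPEL2), 0.46 (CLPX), 0.226 (GRPEL1), -0.20 (CLPB), -0.483 (CLPP) and -0.522 (TRAP1).

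TFB1M and TFB2M, paralogs with roles in mitochondrial ribosomal RNA modification and mitochondrial transcription, lay on opposite sides of 0, and TFB1M was named after its values were seen. TFB1M had 11.3, 8.78 and 12.9 CPM in TNF and 5.95, 5.09 and 7.82 CPM in TNF plus LED, with no overlap (log2 fold change -0.81 ± 0.24, adjusted p = 0.0824, edgeR). TFB2M had 18.2, 14.9 and 18.1 CPM in TNF and 30.4, 45.6 and 23.0 CPM in TNF plus LED, again with no overlap. Neither passed in edgeR, and their difference was not tested.

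CEBPB, a stress-responsive transcription factor named after its values were seen, split the libraries in a way that the labels do not. It had 186, 282 and 281 CPM in TNF replicate 2 and TNF plus LED replicates 4 and 10, and 8.45, 6.67 and 8.18 CPM in TNF replicates 8 and 14 and TNF plus LED replicate 6.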
